A study of Mus musculus with 10 samples.

Results

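A set of 10 genes of pathogen sensing was followed in blood of the AIWG-P cohort, mice prone to antipsychotic-induced weight gain, and of the AIWG-R cohort, mice that resisted it. They are 8 Toll-like receptor genes (*Tlr1*, *Tlr2*, *Tlr4*, *Tlr6*, *Tlr7*, *Tlr8*, *Tlr9* and *Tlr13*), the co-receptor gene *Cd14* and the adaptor gene *Myd88*. The genes were picked by symbol, and all 10 were present among the 10431 genes of the deposited table. *Tlr1* was lower in 4 of the 5 AIWG-P mice than in every AIWG-R mouse, by a mean log2 difference of -0.20 (exact permutation *p* = 0.0238, before any adjustment). Its limma *p* adjusted over all genes was 0.359. An unadjusted limma *p* under 0.05 was met by 1 of the 10 genes, beside 12.8% of all genes tested. No receptor gene passed both thresholds of the comparison, neither of the surface nor of the endosomal group. The widest spread lay between single mice: 5 of the 8 receptor genes had their lowest value in 1 AIWG-P mouse, P8. P8 also had the highest share of globin RNA. The share of all genes that were lowest in P8 is not given here, so this count is not shown to be particular to the receptors.

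Toll-like receptors are sensors of innate immunity, carried by neutrophils, monocytes, B cells and dendritic cells of the blood. *Tlr1*, *Tlr2*, *Tlr4* and *Tlr6* encode receptors of the cell surface that bind lipids and lipopeptides of microbes, and *Tlr7*, *Tlr8*, *Tlr9* and *Tlr13* encode receptors of the endosome that bind nucleic acids. Cd14 hands lipopolysaccharide to Tlr4, and Myd88 joins an activated receptor to the kinases that switch on inflammatory genes.

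RNA of whole blood was sequenced from 10 female C57BL/6J mice, 5 per cohort, without sorting of cells. They were bought at 9 weeks of age, changed from chow to a diet with 45% of kcal from fat at 10 weeks and, after 3 days on it per the series description, ate the same diet with the antipsychotic olanzapine for 14 days. Their weight gain on it placed them in a cohort. The paper describes the sequenced blood as drawn at baseline, before diet and drug, whereas the sample labels name the olanzapine diet as treatment and describe blood taken at the start and at the end. The cohorts share strain, sex, age and treatment and differ by label in weight gain; they are the extremes of a larger group, with no untreated cohort among the samples. The sample titles also hold a number of unstated meaning, called the label number here, which is 4 in P1, P3, P5, R2, R4, R8 and R9 and 3 in the remaining mice. Mice are named P1, P3, P5, P7 and P8 (AIWG-P) and R1, R2, R4, R8 and R9 (AIWG-R).

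Values are the normalized expression values of the deposited table, and log2 differences were taken as AIWG-P minus AIWG-R on log2(value + 1). The median gene had a value between 142.9 and 145.7 in each mouse. Each value was, within 0.02 of a step, a whole multiple of 1 step per mouse, and these multiples summed to 23810098 to 32293924. The step was largest in P8 (1.57, against 0.63 to 1.21 in the other mice), so a given value rested on the fewest multiples there. Red cell RNA dominated the blood: globin genes made up 75.0 to 87.5% of the summed values, the highest share in P8. Of 115 marker genes of blood cell types, 99 were measured. The summed values of the 15 red cell markers reached 278290 to 454672 in AIWG-P mice and 189837 to 399615 in AIWG-R mice, again highest in P8. In whole blood, fewer cells of a type and less RNA per cell cannot be told apart.

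The genes are spread over the mouse genome, with *Tlr2* on chromosome 3, *Tlr4* on 4, *Tlr9* and *Myd88* on 9, *Cd14* on 18 and *Tlr7*, *Tlr8* and *Tlr13* on X, where *Tlr7* and *Tlr8* are neighbours. *Tlr1* and *Tlr6* lie next to each other on chromosome 5, with no other RefSeq gene wholly between them, and their coding sequences share an identical run of 229 bases. The run is shown because a read from it cannot be given to either gene by its sequence. It lies on the minus strand at chr5:64925537-64925765 in *Tlr1* and at chr5:64953828-64954056 in *Tlr6* (GENCODE vM21, GRCm38), and it is printed in lower case since every base is shared.
Tlr1 and Tlr6 shared coding run: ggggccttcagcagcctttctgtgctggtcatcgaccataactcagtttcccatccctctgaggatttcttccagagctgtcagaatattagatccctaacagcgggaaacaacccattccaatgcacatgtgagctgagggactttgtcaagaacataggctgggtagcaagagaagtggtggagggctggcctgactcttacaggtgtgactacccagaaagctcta
Of the 50-base words in *Tlr1* transcripts, 15.4% also occurred in transcripts of another gene, mainly *Tlr6*, and of those in *Tlr6* 12.3% did. No such word was shared by *Tlr2*, *Tlr7*, *Tlr8*, *Tlr9*, *Tlr13*, *Cd14* or *Myd88*, and 1 word by *Tlr4*. Reads were counted with RSEM. The share of reads fitting both *Tlr1* and *Tlr6* that it assigned to each gene was not given in the sources used here, so both values carry this uncertainty.

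*Tlr1*, the partner of Tlr2 in sensing triacylated lipopeptides, had values of 471 (P1), 408 (P3), 391 (P5), 395 (P7) and 407 (P8) in the AIWG-P cohort. In the AIWG-R cohort they were 500.0 (R1), 507 (R2), 458 (R4), 482 (R8) and 430.2 (R9). P3, P5, P7 and P8 were under the lowest AIWG-R value, and P1 was inside the AIWG-R range, so the cohorts overlapped. The means were 414 ± 32.7 and 475 ± 31.6 (SD, n = 5 each), a fold of 0.872 and a log2 difference of -0.20 (SE 0.08, 95% interval -0.37 to -0.02). The limma test gave *p* = 0.0283 and a Benjamini-Hochberg adjusted *p* of 0.359 over all genes, and the exact permutation test of the 10 mice *p* = 0.0238. The change was smaller than the fold threshold, which is 0.32 on the log2 scale. When library sizes were computed without globins, the log2 difference of *Tlr1* was -0.34 with a limma *p* of 0.0019, past both thresholds, while the median of all genes moved to -0.15 under that scaling. It was -0.16 with a limma *p* of 0.0999 when the monocyte marker mean was a covariate, and the limma *p* lay between 0.0535 and 0.0710 without P5, P7, R1, R2 or R8.

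*Tlr2* encodes the receptor that pairs with Tlr1 or Tlr6. Its values were 104, 111, 95.3, 131 and 108 in P1, P3, P5, P7 and P8, and 119, 98.3, 107, 73.8 and 74.6 in R1, R2, R4, R8 and R9. R8 and R9 were low, and the other 3 AIWG-R mice lay within the AIWG-P range. The log2 difference was 0.23 (SE 0.14, 95% interval -0.08 to 0.55, *p* = 0.131 by limma and 0.198 by exact permutation). Among the alternatives run, *Tlr2* passed both thresholds only when R1 was left out (0.32, with a limma *p* of 0.0415).

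*Tlr6*, whose product senses diacylated lipopeptides with Tlr2, ranged from 45.6 (P8) to 89.5 (P3) in AIWG-P and from 53.9 (R9) to 94.4 (R1) in AIWG-R mice. Both cohorts thus held 1 mouse well above the others, P3 and R1. The log2 difference was -0.12 (95% interval -0.53 to 0.29). *Tlr4*, the lipopolysaccharide receptor, was at 59.2, 101, 86.0, 75.2 and 48.7 in P1, P3, P5, P7 and P8. In R1, R2, R4, R8 and R9 it was at 90.1, 81.4, 67.7, 70.5 and 62.7. The AIWG-R mice lay wholly within the AIWG-P range, with a log2 difference of -0.04 (95% interval -0.44 to 0.36).

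Since Tlr1 acts in a pair with Tlr2, their values were set against each other within each mouse, a comparison chosen after the values were seen and given without a test. The log2 ratio of *Tlr1* to *Tlr2* was 2.18, 1.87, 2.04, 1.6 and 1.91 in P1, P3, P5, P7 and P8. In R1, R2, R4, R8 and R9 it was 2.07, 2.37, 2.10, 2.71 and 2.53. P3, P5, P7 and P8 were below the lowest AIWG-R ratio, and the means differed by -0.43 (1.92 ± 0.22 and 2.35 ± 0.27, SD). The ratio of *Tlr6* to *Tlr2* overlapped more widely, at -1.29 to -0.31 in AIWG-P and -0.76 to -0.23 in AIWG-R mice.

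**Figure D1:**
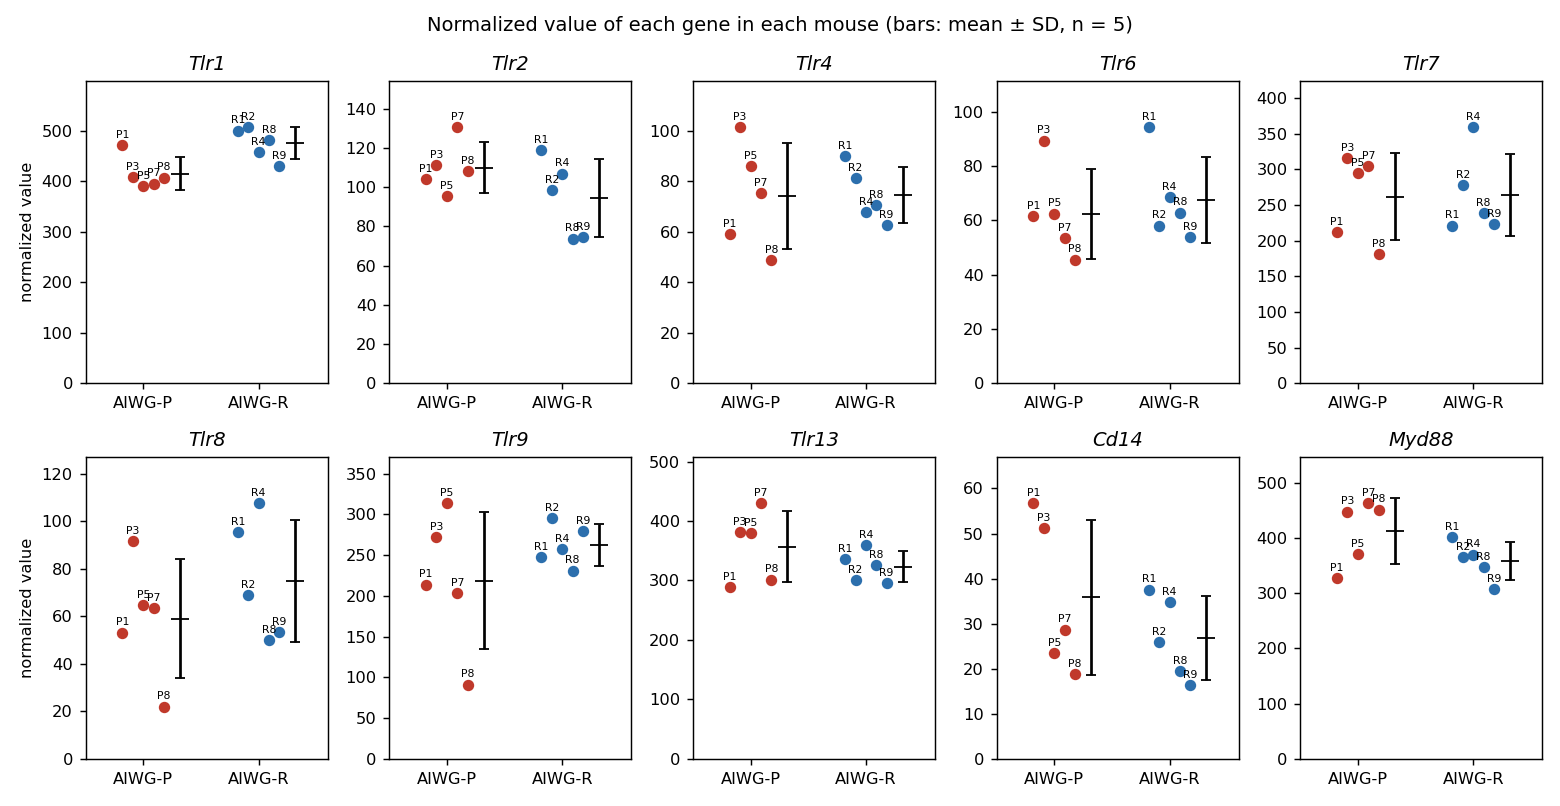
Normalized value (vertical axis, linear from 0) of each of the 10 genes in each mouse, with the mean and SD of each cohort (n = 5) beside the points. In *Tlr1* the points of P3, P5, P7 and P8 lie under every AIWG-R point, P8 is the lowest point of *Tlr4*, *Tlr6*, *Tlr7*, *Tlr8* and *Tlr9*, and the cohorts overlap in every gene.

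Among the endosomal receptors, *Tlr9* encodes the sensor of unmethylated CpG DNA. Its values were 214, 272, 314, 203 and 91.1 in P1, P3, P5, P7 and P8, and 248, 295, 257, 231 and 279.7 in R1, R2, R4, R8 and R9. P8 held less than any other mouse, and the remaining AIWG-P mice reached both below and above the AIWG-R range. The log2 difference was -0.37 (SE 0.25, 95% interval -0.92 to 0.18, *p* = 0.172 by limma and 0.286 by exact permutation), and it was -0.08 without P8.

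*Tlr8*, a relative of *Tlr7* whose human counterpart senses single-stranded RNA, stood at 53.2, 91.6, 64.9 and 63.4 in P1, P3, P5 and P7 and at 22.0 in P8. It stood at 95.5, 68.8, 108, 49.9 and 53.3 in R1, R2, R4, R8 and R9. The AIWG-R mice themselves fell apart, with R1 and R4 high and R8 and R9 near P1. The log2 difference was -0.41 (SE 0.33, 95% interval -1.12 to 0.30, *p* = 0.232 by limma and 0.381 by exact permutation), and it was -0.10 without P8 and -0.26 without R4. *Tlr8* varied more between mice than 97.9% of all genes tested, with a highest value 4.90 times the lowest, and *Tlr9* varied more than 94.8%, with a highest value 3.45 times the lowest. These ranks include P8. Without P8 the SD of log2 values fell from 0.64 to 0.40 for *Tlr8* and from 0.51 to 0.21 for *Tlr9*.

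*Tlr7*, the sensor of single-stranded RNA, was at 212, 315, 295, 305 and 181 in P1, P3, P5, P7 and P8. It was at 221, 278, 359, 239 and 223 in R1, R2, R4, R8 and R9. Each cohort held low and high mice, and the log2 difference was -0.02 (95% interval -0.40 to 0.36). *Tlr13*, in mice the sensor of a bacterial ribosomal RNA sequence, was at 289, 382, 379.8, 431 and 302 in P1, P3, P5, P7 and P8. It was at 336, 300.4, 359.9, 325 and 296 in R1, R2, R4, R8 and R9. P3, P5 and P7 exceeded every AIWG-R mouse while P1 and P8 did not, and the log2 difference was 0.13 (95% interval -0.12 to 0.37).

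P8 thus parted the endosomal receptors: *Tlr8* and *Tlr9* lay 1.45 and 1.33 below their 10-mouse means on the log2 scale in P8, *Tlr7* 0.51 below and *Tlr13* 0.16 below. The windows from 250 bases before to 50 bases after the start of *Tlr8*, *Tlr9* and *Tlr13* are shown to set the genes that dropped most beside the one that dropped least. They come from RefSeq (GRCm38.p6), which gave a window for 7 of the 10 genes, and lie at chrX:167264280-167264579 (minus strand), chr9:106222348-106222647 (plus strand) and chrX:106143025-106143324 (plus strand). Capitals mark GAGGAA, the core bound by the myeloid factor PU.1, and the AP-1 site TGACTCA, on either strand.
Tlr8: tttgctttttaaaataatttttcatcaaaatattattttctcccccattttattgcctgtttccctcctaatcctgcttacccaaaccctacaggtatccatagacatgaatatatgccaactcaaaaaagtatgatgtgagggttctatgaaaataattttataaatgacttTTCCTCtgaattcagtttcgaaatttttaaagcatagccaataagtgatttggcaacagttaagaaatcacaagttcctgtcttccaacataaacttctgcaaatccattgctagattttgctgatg
Tlr9: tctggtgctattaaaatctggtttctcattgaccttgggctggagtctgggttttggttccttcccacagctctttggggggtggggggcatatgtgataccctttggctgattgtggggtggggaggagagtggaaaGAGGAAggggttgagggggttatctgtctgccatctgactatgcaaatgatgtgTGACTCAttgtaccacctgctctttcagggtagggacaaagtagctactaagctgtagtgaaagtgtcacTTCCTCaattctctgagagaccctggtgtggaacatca
Tlr13: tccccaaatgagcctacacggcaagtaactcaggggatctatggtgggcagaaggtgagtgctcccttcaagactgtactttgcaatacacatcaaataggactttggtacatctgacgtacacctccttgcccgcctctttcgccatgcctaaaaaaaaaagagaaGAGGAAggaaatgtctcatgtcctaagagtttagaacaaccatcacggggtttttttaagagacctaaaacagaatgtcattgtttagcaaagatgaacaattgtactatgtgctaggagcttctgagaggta
GAGGAA occurred once in the windows of *Tlr8* and *Tlr13* and 2 times in that of *Tlr9*, and it was present in 28.3% of all 32851 RefSeq windows. TGACTCA occurred in the window of *Tlr9* and in 5.2% of all windows. The interferon-stimulated response element, searched for as well, was in none of these 3 windows, in windows of *Tlr6* (2 overlapping matches) and *Myd88*, and in 3.44% of all windows. GAGGAA was also in 1 of 2 windows of *Tlr1*, and no motif was in that of *Tlr2*. No motif searched was shared by *Tlr8* and *Tlr9* and missing from *Tlr13*, and a match of letters is no evidence of binding.

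The surface and the endosomal receptors were then compared as groups of 4, by the mean of their log2 values in each mouse. The surface mean was 6.66 to 7.17 in AIWG-P and 6.69 to 7.24 in AIWG-R mice, a difference of -0.03. The endosomal mean was 6.70 to 7.88 in AIWG-P and 7.45 to 7.94 in AIWG-R mice, a difference of -0.17. Both differences were 0.03 without P8. Within single mice the endosomal mean exceeded the surface mean by 0.48, 0.71, 0.87, 0.75 and 0.04 in P1, P3, P5, P7 and P8, and by 0.44, 0.71, 0.99, 0.62 and 0.79 in R1, R2, R4, R8 and R9. The median was 0.71 in both cohorts, with P8 the lowest and R4 the highest of all mice. These means describe genes that were chosen beforehand by name, and no *p* was computed on them.

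P8 differed from the other mice in more than its receptors. It had the highest summed values of T cell markers (9062, against 6293 to 7791 in the others), platelet markers (19549, against 5738 to 15028) and red cell markers. Its sum of plasmacytoid dendritic cell markers was also the highest (2052, against 1630 to 2004 in the others). By mean log2 value these markers were at 7.58 in P8, inside the AIWG-R range (7.41 to 7.68). Its monocyte marker sum of 21173 was inside the range of the AIWG-R mice (17381 to 21942), its neutrophil marker sum of 11959 was inside theirs (9214 to 20363), and so was its B cell marker sum of 32308 (28190 to 33279). The values of P8 also rested on few steps. *Tlr8* had 14 steps in P8 against 44 to 121 in the other mice, and *Tlr9* had 58 against 177 to 446. The part of blood composition or of this small number of steps in the low *Tlr8* and *Tlr9* values of P8 was not tested.

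**Figure D2:**
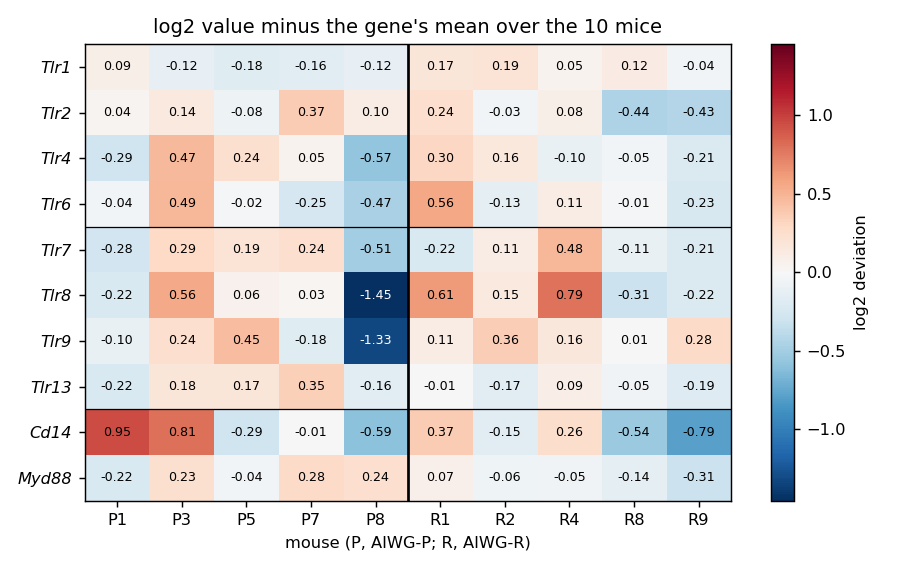
Heat map of log2(value + 1) minus the mean of the gene over the 10 mice (colour and printed number), for the 10 genes (rows, surface receptors above endosomal receptors above *Cd14* and *Myd88*) and the mice of both cohorts (columns). The darkest blue cells are *Tlr8* (-1.45) and *Tlr9* (-1.33) in P8, and the darkest red cells are *Cd14* in P1 (0.95) and P3 (0.81).

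*Cd14* had the lowest mean value of the 10 genes before correction for length. It was at 56.8, 51.3, 23.4, 28.7 and 18.9 in P1, P3, P5, P7 and P8, and at 37.6, 25.9, 34.7, 19.5 and 16.3 in R1, R2, R4, R8 and R9. P1 and P3 were above every AIWG-R mouse, and the other AIWG-P mice lay within the AIWG-R range. The log2 difference was 0.35 (SE 0.32, 95% interval -0.35 to 1.04, *p* = 0.303 by limma and 0.381 by exact permutation). It was 0.15 without P1, 0.19 without P3 or without R9 and 0.54 without P8, and it was 0.07 with the neutrophil and 0.08 with the red cell marker mean as a covariate. The spread between mice exceeded that of 97.1% of all genes. If a step is 1 read, *Cd14* rested on 12 to 47 reads per mouse and *Tlr8* on 14 to 121, against 259 to 686 for *Tlr1*.

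*Myd88*, the adaptor that all 8 of these receptors use, had values of 328, 447, 370.4, 463 and 451 in P1, P3, P5, P7 and P8. They were 401, 366, 369.7, 347 and 307 in R1, R2, R4, R8 and R9. P3, P7 and P8 were above all AIWG-R mice and P1 was below all but R9. The log2 difference was 0.19 (SE 0.11, 95% interval -0.05 to 0.43, *p* = 0.103 by limma and 0.127 by exact permutation). It was 0.27 without P1, with a limma *p* of 0.01997, under the fold threshold. P8 thus combined high *Myd88* with the lowest *Tlr8* and *Tlr9* of all mice.

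Across the family, 0 of 10 genes passed both thresholds of the comparison (an unadjusted *p* under 0.05 and a log2 difference beyond 0.32 in either direction), beside 7.29% of all 10429 genes tested. An unadjusted *p* under 0.05 was met by 1 of 10, *Tlr1*, beside 12.8% of all genes, and an adjusted *p* under 0.05 by none of the 10 and none of all genes (limma). All 10 genes overlapped between cohorts, whereas 2.55% of all genes did not. The signs were mixed, 4 positive and 6 negative, with a median log2 difference of -0.03 beside -0.01 over all genes. Among other settings that turned signs, the differences of *Tlr4* and *Tlr7* were positive without P8 (0.10 each), and the sign of *Tlr6* turned without R1 (0.01) and that of *Tlr13* when library sizes were computed without globins (-0.02). For *Tlr4*, *Tlr6*, *Tlr7* and *Tlr13* the 95% intervals reached at most 0.53 in size on the log2 scale, while those of *Tlr8* and *Cd14* reached beyond 1, so larger differences of these last genes could not be told from none.

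**Figure D3:**
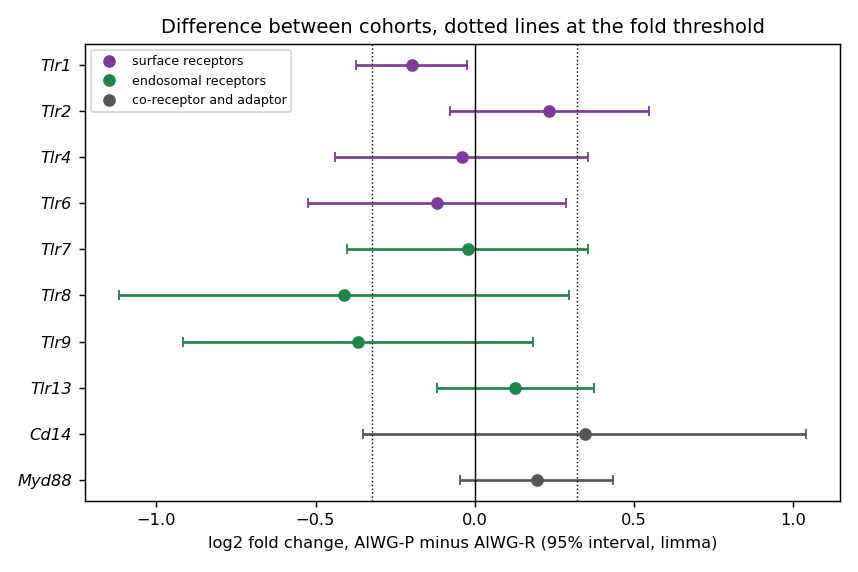
Log2 difference between cohorts (AIWG-P minus AIWG-R, horizontal axis) of each gene from limma with its 95% interval, coloured by receptor group, with dotted lines at the fold threshold (0.32 on the log2 scale). *Tlr1* (-0.20) is the only gene whose interval (-0.37 to -0.02) leaves out 0, and the intervals of *Tlr8*, *Tlr9* and *Cd14* are the widest.

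Levels of different genes were compared per kilobase of exon (GENCODE vM21). *Myd88* came first at a mean of 149 per kb, followed by *Tlr1* (133), *Tlr13* (79.0), *Tlr9* (69.1), *Tlr7* (64.3), *Tlr2* (33.9), *Tlr8* (18.7), *Cd14* (18.1), *Tlr6* (17.5) and *Tlr4* (13.4). The order had a gap after *Tlr1* and another after *Tlr7*: the ranges of *Tlr1* and *Tlr13* did not overlap over the 10 mice, nor did those of *Tlr7* and *Tlr2*. *Tlr1* exceeded *Tlr13* and *Tlr7* exceeded *Tlr2* in 10 of 10 mice. Other neighbours were less distinct: *Myd88* exceeded *Tlr1* in 6 of 10 mice, *Tlr13* exceeded *Tlr9* in 7, *Tlr9* exceeded *Tlr7* in 7, *Tlr8* exceeded *Cd14* in 7 and *Cd14* exceeded *Tlr6* in 4. *Tlr2* was above *Tlr8*, and *Tlr6* above *Tlr4*, in every mouse although their ranges overlapped. The endosomal receptors other than *Tlr8* thus had higher mean levels per kb than the surface receptors other than *Tlr1*. *Tlr1* stood far above *Tlr2* and *Tlr6* per kb, the genes of its relatives at the cell surface.

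**Figure D4:**
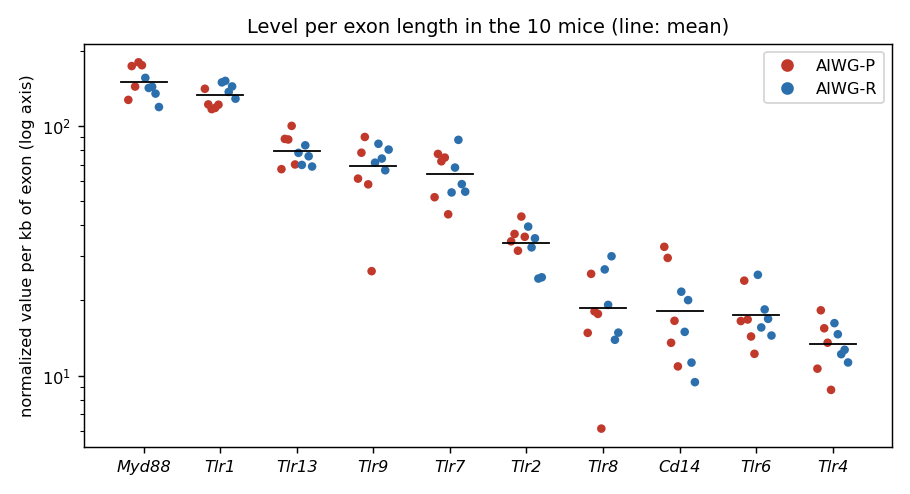
Normalized value per kilobase of exon (log axis) of the 10 genes in the 10 mice, ordered by their mean (line), with cohorts in colour. *Myd88* and *Tlr1* form the top tier, *Tlr13*, *Tlr9* and *Tlr7* the middle tier apart from the P8 point of *Tlr9*, and the remaining 5 genes lie below.

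The genes did not move as 1 block over the mice. Pearson's r of log2 values over the 10 mice, which share library preparation and blood composition, ranged from -0.56 (*Tlr1* and *Tlr13*) to 0.79 (*Tlr8* and *Tlr9*) over the 45 pairs, with a median of 0.28. These correlations are descriptions and carry no test. The pair *Tlr8* and *Tlr9* rested on P8, since r was 0.22 in the other 9 mice. Pairs that did not rest on P8 were *Tlr2* with *Myd88* (0.76, and 0.79 without P8), *Tlr7* with *Tlr13* (0.72 and 0.71), *Tlr6* with *Tlr8* (0.78 and 0.71), *Tlr4* with *Tlr6* (0.77 and 0.66) and *Tlr13* with *Myd88* (0.61 and 0.84). The 6 endosomal pairs had a median r of 0.66 that became 0.31 without P8, and the 6 surface pairs had 0.23 and 0.28. *Tlr1* stood apart, with r from -0.56 to 0.31 against the 9 other genes.

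For each gene the 3 genes with the highest r over the 10 mice were taken from all genes tested. *Tlr1* went with *Carns1* (0.97), *Siglecg* (0.97), which encodes an inhibitory lectin of B cells, and *Ccnl2* (0.95). *Tlr2* went with *Fcgr3* (0.97), an IgG receptor gene of myeloid and NK cells, *Plod3* (0.93) and *Spi1* (0.92), which encodes PU.1. *Tlr4* went with *Stat3* (0.96), *Sgpl1* (0.92) and *Nid1* (0.91), and *Tlr6* with *Dennd5a* (0.93), *Kdm6b* (0.92) and *Vnn3* (0.90). The 3 nearest genes were therefore different for each surface receptor. *Siglecg* was the only B cell gene named for *Tlr1*, and 1 of 11 B cell markers was among its 100 genes of highest r. The median r of *Tlr1* over that list was 0.28. For *Tlr2*, 1 of 19 monocyte and 0 of 11 neutrophil markers were among the 100 genes of highest r.

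*Tlr7* went with *Fbxo33* (0.96) and *Lmo4* (0.93) among others, and *Tlr13* with *Smg8* (0.92), the interferon-inducible *Ifi204* (0.89) and *Nxpe4* (0.87). *Tlr8* went with *Il17ra* (0.96), *Slc29a3* (0.95), the gene of a lysosomal nucleoside transporter, and *Fn1* (0.95), and these values were 0.88, 0.86 and 0.85 without P8. *Tlr9* went with *Ralgps2*, *Epg5* and *Cyfip2* (0.98 each), which became 0.90, 0.86 and 0.87 without P8. *Cd14* went with *Tnfaip2* (0.93), *Pxn* (0.90) and *Rab11fip1* (0.89), and *Myd88* with *Elavl1* (0.93), *Hspa5* (0.92) and *Ndufs5* (0.92). Among the 100 genes nearest to each, markers of blood cells were few: *Cd22* of B cells and *Pacsin1* of plasmacytoid dendritic cells for *Tlr1*, *Lyz2* for *Tlr2*, *Cx3cr1* and *Adgre4* of monocytes for *Tlr7* together with *Ms4a1*, *Ebf1* and *Lair1*, *Fn1* for *Tlr8*, *Ccr2* and *Fcgr1* of monocytes for *Tlr13*, *Csf3r* and *Cxcr2* of neutrophils for *Cd14*, and *Ngp* and *Cd68* for *Myd88*. No marker was among the 100 nearest genes of *Tlr4*, *Tlr6* or *Tlr9*.

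*Cd22*, the B cell marker nearest to *Tlr1*, was lower in all 5 AIWG-P mice (2237 to 2557) than in all AIWG-R mice (2619.9 to 3044), with a log2 difference of -0.23 (exact permutation *p* = 0.0079, adjusted limma *p* = 0.337), under the fold threshold. *Cd22* was picked for its correlation with *Tlr1* in these same mice, so its difference and *p* are not independent of those of *Tlr1*. Of all genes tested, 2.55% did not overlap between cohorts. None of the 11 B cell markers measured passed both thresholds, and their median log2 difference was -0.06. Their summed values were 28164 to 32308 in AIWG-P and 28190 to 33279 in AIWG-R mice. The part of B cells in the *Tlr1* difference was not tested.

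The rest of the pathway was described from lists of 97 genes, of which 88 were measured. Both thresholds were passed by 5 of the 88 in the direction of AIWG-P, beside 4.06% of all genes tested. In the direction of AIWG-R 3 of the 88 passed, beside 3.23% of all genes tested. The median log2 difference of the 88 was -0.02. The adaptors beside Myd88 (*Tirap*, *Ticam1* and *Ticam2*) had log2 differences of -0.11, -0.15 and -0.19, none past the thresholds. Of 22 kinases and ubiquitin ligases downstream, 0 passed, 17 were negative and 5 positive, and their median was -0.10. Of all genes tested, 5382 were negative and 5047 positive. An unadjusted limma *p* under 0.05 was met by 2 of the 22, beside 12.8% of all genes. Named after their values were seen, *Ikbkb*, the catalytic kinase of NF-kB activation, had a log2 difference of -0.26 (exact permutation *p* = 0.0159) and *Ripk1* one of 0.19 (exact permutation *p* = 0.0079), both before any adjustment and under the fold threshold. The other Toll-like receptor gene of the list that was measured, *Tlr12*, had values of 41.4 to 52.5 in AIWG-P and 48.1 to 66.2 in AIWG-R mice (log2 difference -0.18, exact permutation *p* = 0.119).

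For single pathway genes the exact *p* is from permutation of the 10 mice, and calls rest on limma. Among 24 measured genes for partners, folding and trafficking of the receptors, 4 were higher in AIWG-P and 1 was lower. Of all genes tested 4.06% were higher and 3.23% lower. Endosomal receptors are cut by lysosomal proteases before they signal. The cathepsin genes *Ctsb* (2982 to 4526 in AIWG-P, 1752 to 3317 in AIWG-R, log2 difference 0.48, exact *p* = 0.0317) and *Ctsl* (41.1 to 52.5 and 31.3 to 41.8, 0.34, exact *p* = 0.0238) were higher in AIWG-P. Whether this bears on the receptors was not tested. *Cd36*, the gene of a scavenger receptor that delivers ligands to Tlr2 pairs, was higher by 0.56 (451 to 569 and 229 to 465, exact *p* = 0.0159), and *Pld3*, the gene of an endolysosomal exonuclease that degrades ligands of Tlr9, by 0.33 (343 to 478 and 269.6 to 345, exact *p* = 0.0238). *Wdfy1*, the gene of an endosomal adaptor of Toll-like receptor signalling, was lower by 0.41 (86.2 to 138 and 118 to 176, exact *p* = 0.0317). The chaperone genes *Unc93b1* and *Hsp90b1*, whose products bring the receptors to their compartments, had log2 differences of -0.09 and 0.03. With the red cell marker mean as a covariate, *Ctsb* (0.03), *Cd36* (0.19) and *Pld3* (0.15) no longer passed, and neither did *Ctsl* (0.39, with a limma *p* of 0.0533).

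Of 21 measured brakes on the pathway, *Nlrc5* and *Nlrc3* were lower in AIWG-P, beside 3.23% of all genes tested. *Nlrc5*, described as a restraint on NF-kB and as an activator of MHC class I genes, was at 460.3 to 585 in AIWG-P and at 616 to 707 in AIWG-R mice (log2 difference -0.33). Its cohorts did not overlap, beside 2.55% of all genes tested without overlap. Its exact *p* of 0.0079 is the smallest that the permutation test allows. *Nlrc3*, a relative that restrains Traf6, was at 162 to 279 and 249.98 to 288 (-0.35, exact *p* = 0.0556). Among 17 transcription factors downstream, *Irf7*, the interferon regulatory factor that acts behind Tlr7 and Tlr9, was higher in AIWG-P, at 1317 to 2965 against 722 to 1784 (0.54, exact *p* = 0.103). *Irf7* was highest in P8, the mouse with the lowest *Tlr7* and *Tlr9*, and it did not pass without P8 (0.36) nor with the red cell marker mean as a covariate (0.01). Adjusted *p* values of these 8 genes were between 0.325 and 0.382. *Ctsb*, *Cd36* and *Wdfy1* passed whichever single mouse was left out. *Ctsl* did not without P7, R2 or R4, *Pld3* without P8, R4 or R9, *Nlrc5* without P7, P8, R4 or R9, *Nlrc3* without P7 or P8, and *Irf7* without P1, P3, R1, R2 or R9 either. The number of list genes past both thresholds was 5 without P8, without R4 or without R9. With the monocyte marker mean as a covariate, calls were lost for *Wdfy1* (-0.23, with a limma *p* of 0.0642), *Nlrc3* (-0.29, 0.0836), *Ctsl* (0.32, 0.0617), *Irf7* (0.54, 0.0832) and *Nlrc5* (-0.32, just under the fold threshold). With the neutrophil marker mean they were lost for *Ctsl* (0.26), *Pld3* (0.30), *Nlrc5* (-0.29) and *Nlrc3* (-0.30), with the label number for these 4 (0.29, 0.30, -0.29 and -0.27) and *Irf7* (0.53), and with the red cell marker mean for *Nlrc5* (-0.29) and *Nlrc3* (-0.38, with a limma *p* of 0.0619) as well.

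Of the marker lists, that of red cells held the most calls. Of 15 red cell markers 11 were higher in AIWG-P, with a median log2 difference of 0.68, beside 4.06% of all genes tested. Of 11 neutrophil markers 2 were higher (*Ngp* and *Stfa2l1*, median of the list 0.22), and of 19 monocyte markers 2 were higher (*Cd68* and *Clec4a3*, median 0.12). These are few genes to set beside that share. No marker of B cells, T cells, dendritic cells, platelets or eosinophils passed both thresholds, and 1 of 9 NK cell markers was lower. Neutrophil marker sums were 11082 to 15791 in AIWG-P and 9214 to 20363 in AIWG-R mice, and monocyte marker sums 20003 to 26509 and 17381 to 21942. *Ly6g* of neutrophils and *Siglech* of plasmacytoid dendritic cells were not among the genes used. With the monocyte marker mean as a covariate the log2 differences of *Tlr7* and *Tlr8* were -0.25 and -0.66 with limma *p* of 0.115 and 0.0812, neither past the threshold, and the part of cell composition in the receptor values was not tested further.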

How the data were processed

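Whole-blood RNA libraries of 10 mice (TruSeq kits) were mapped by the authors to the mouse transcriptome with Bowtie2 and counted with RSEM. The submitters' processing notes also name limma and the mm9 build, and tool versions were not given in the sources used here. For each mouse and gene the deposited table has 1 signal value, normalized by the authors in a way not stated there. Its other deposited columns (the authors' cohort means, a signed fold score, a log2 ratio, *p*-values and q-values) were not used as results.

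Genes above 1 in at least 5 mice (10429, with 2 left out) were compared between cohorts on log2(value + 1) with limma 3.58.1 (mean-variance trend, no covariate) in R 4.3.3, and *p* was adjusted by the Benjamini-Hochberg method over all genes. Calls required an unadjusted *p* under 0.05 together with a fold above 1.25 either way. Exact permutation tests were two-sided, and the smallest *p* they allow is 0.0079. The fit was tested on simulated data. Each sample is 1 mouse.

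The 10 genes, the pathway lists and the marker lists were chosen with earlier results of these data known. Named by rule were these genes, list genes past both thresholds, markers a result turns on and the 3 genes most correlated with each; others were named after their values were seen, and 1 gene that the rule names is not reported here. Exon lengths came from GENCODE vM21 and promoters from RefSeq, by Entrez ID. Count-based tests were not run, since the values are normalized. The alternatives changed the scaling, filter, pseudocount, trend, weights, covariates and thresholds, or left out mice.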

Additional observations from a re-analysis of the deposited data

Results flagged for a closer look

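*Tlr1* in P1 stood apart from the other AIWG-P mice. Its value of 471 was separated from the next by 0.785 of the range of the cohort, above the limit of 0.710 for 5 values (Dixon's test at the 95% level). The other 4 AIWG-P mice lay between 391 and 408, and without P1 the log2 difference of *Tlr1* was -0.25, with a limma *p* of 0.0089. This test was run 26 times, and chance gives about 1 such value in 20.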

How the results depend on the processing

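Of the 10 genes, 0 passed both thresholds as reported; 1 passed when library sizes were computed without globins (*Tlr1*), 1 with no fold threshold (*Tlr1*), and leaving out each mouse in turn gave 0 to 1. The sign of *Tlr1* was kept in 27 of 27 alternatives and its limma *p* was under 0.05 in 20. Changing only the thresholds left its estimate and limma *p* as they were. All alternatives reuse the same mice, so these counts are not independent support. With library sizes computed without globins, 162 genes of all were higher and 1212 lower in AIWG-P, against 423 and 337 as reported (11.8 against 55.7% of calls higher). With the red cell marker mean as a covariate 133 were higher and 255 lower (34.3%). No fold threshold gave 702 and 638, P8 and R9 both left out 178 and 188, a fold under 0.75 for lower genes 196 lower (68.3% of calls higher), and leaving out single mice 265 to 563 and 228 to 637, lowest without R9 and without P8 (43.3% of calls higher without P1). The pathway count of 8 became 2 without P8 and R9 and with the red cell covariate, 4 with array weights and with the neutrophil covariate, 3 with the label number, 5 with a fold under 0.75 for lower genes, 13 with no fold threshold, and 5 to 9 without single mice. The marker count of 16 became 10 without P8 and R9 and with the neutrophil covariate, 3 with the red cell covariate, and 10 to 20 without single mice. The surface difference was -0.10 to 0.05 and the endosomal difference -0.27 to 0.03 without single mice. The cause of these changes was not tested.

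Only numbers 1 and 8 occur in both cohorts, on different animals, so they were not taken as pairs; deviations correlated by 0.12 (P1 and R1) and 0.33 (P8 and R8). In a fit with a replicate block, each mouse with an unshared number was a block of its own, so only P1, R1, P8 and R8 set the estimates. This replicate block left 1 residual degree of freedom. With it 4 of the 10 genes (*Tlr4*, *Tlr6*, *Tlr8* and *Tlr9*) and 25 markers passed, the surface and endosomal differences were -0.27 and -0.54, and 770 genes of all were higher and 1006 lower (43.4% of calls higher). Count-based tests and *Cd14* and *Ctsl* under the filter above 50 gave no value. The small number of steps per mouse limits *Cd14* and *Tlr8* most.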
